A study of Homo sapiens with 4 samples.

Results

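The BCL2 family decides whether the outer mitochondrial membrane is breached and the cell enters apoptosis. The anti-apoptotic proteins bind and hold back the others, the BH3-only proteins sense stress or loss of growth signals and neutralize the anti-apoptotic proteins, and the effectors BAX and BAK1 form the pores through which cytochrome c escapes. In cells driven by a receptor kinase, ERK signaling is known to mark BIM, the product of BCL2L11, for degradation and to restrain its transcription. Described here are 10 genes of this family among the 20372 genes of the deposited table, chosen by name: 3 anti-apoptotic genes (BCL2, BCL2L1, and MCL1), 5 BH3-only genes (BCL2L11, BMF, BBC3, BIK, and PMAIP1), and 2 effectors (BAX and BAK1).

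RNA was sequenced from TPC1 cells, an established human papillary thyroid carcinoma line that carries the CCDC6-RET fusion, after 6 h or 24 h of the RET inhibitor BLU6864, with 2 libraries at each time. All 4 libraries received the inhibitor, and no untreated library was analysed here, so a difference between the times is a difference between a short and a long exposure, from which time spent in culture cannot be separated. The labels give a dose of 100 µM and 50 bp single-end reads, whereas the methods give 100 nM and paired-end reads. Only the 24 h libraries are labelled as a re-analysis, so any difference in handling between the times cannot be told apart from time either. Neither source states whether the 2 libraries of a time came from separate cultures, so the spread behind the P values may be technical. The test used here also shares spread across genes, so a P value does not rest on a gene's own libraries alone.

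Total counts ranged from 23917056 to 27457040 reads on genes per library. The thyroid factor PAX8 had 19124 to 22978 counts in every library and RET 1387 to 1522, whereas TSHR and NKX2-1, other markers of thyroid cells, had 0 counts in all 4. Thyroglobulin (TG) had 186 and 245 counts at 6 h and 98 and 111 at 24 h. Of 11 markers of white blood cells and fibroblasts, 5 had at most 3 counts in every library, PTPRC at most 5 and LYZ at most 3. The summed normalized count of these 11 markers was 5237 and 5038 at 6 h and 2866 and 2946 at 24 h, most of it from CD68, and its part in the changes below was not tested.

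A normalized count here is the raw count divided by the library size after TMM scaling, relative to the mean of the 4 libraries. A gene was called higher or lower when its log2 fold change between 24 h and 6 h exceeded 0.5 in size with an unadjusted P under 0.01 in edgeR's quasi-likelihood test over 12876 genes. The study's methods state these cutoffs for lower genes, and the same size was used here for higher genes. All 10 genes of the family passed the filter on low counts. Of these, 2 were called higher (BCL2 and BCL2L1), 2 were called lower (BCL2L11 and BAK1), and 6 were not called, beside 17.4% of all genes tested called higher and 17.7% called lower. With a Benjamini-Hochberg adjusted P under 0.05 as the sole criterion, 4 of the 10 were higher and 4 lower, against 33.0% and 32.6% of all genes. The 24 h libraries did not overlap the 6 h libraries in any of the 10 genes, as in 81.8% of all genes. Each of these shares was near that of all genes, so the counts are no result about the family, and the values of single genes follow. The median log2 fold change of the 10 genes was -0.20, against 0.0029 for all genes tested.

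**Figure D1:**
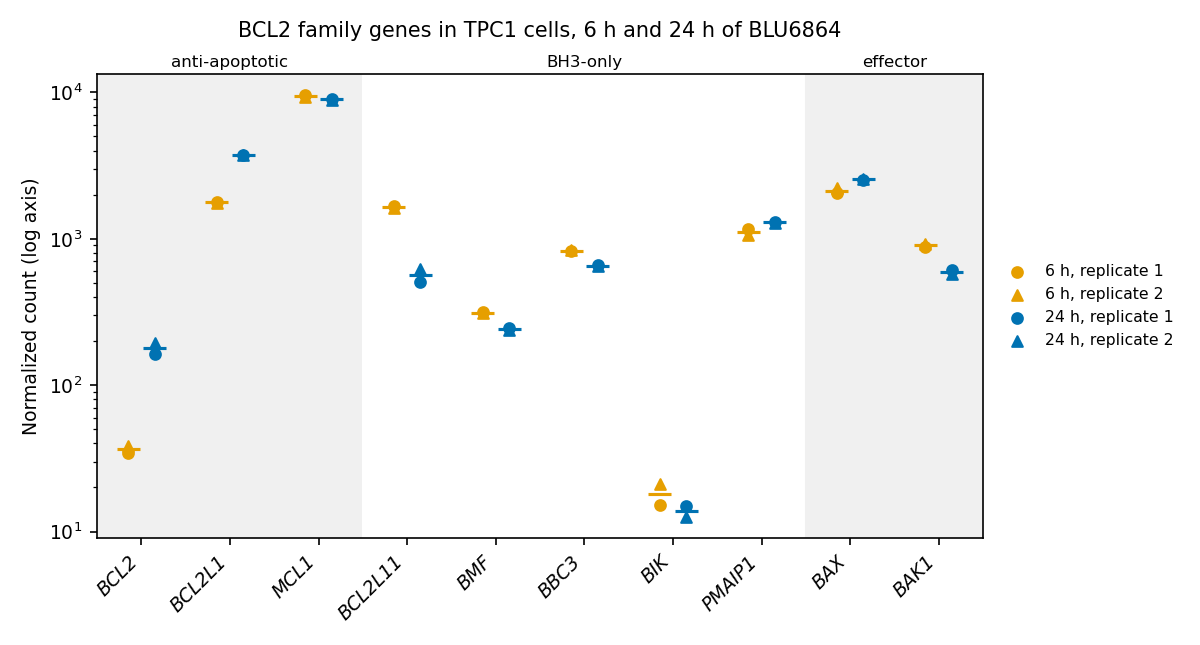
Normalized counts (log axis) of the 10 genes in each library, with 6 h in orange, 24 h in blue, circles for replicate 1, triangles for replicate 2, and a bar at the mean of the 2 libraries. BCL2 and BCL2L1 lie higher at 24 h, BCL2L11 and BAK1 lie lower, and the MCL1 libraries lie between 8908 and 9555 at both times.

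To show the sequence upstream of the genes that changed, promoter windows of the 4 called genes are given from RefSeq (GRCh38.p14). That of BAX, the effector that was not called, is also given. Each window has 250 bases before the gene's start and 50 from it, on the strand of the gene. The windows of BMF, BBC3, and PMAIP1 were searched but are not shown. The deposited counts follow the hg19 build, and the 2 sets of coordinates were not mixed. The table of windows held 8 of the 10 genes, all but MCL1 and BIK. Each window was searched on both strands for 10 motifs, namely FOXO (GTAAACA), AP-1 (TGANTCA), CRE (TGACGTCA), STAT (TTCNNNGAA), E-box (CACGTG), ETS (CCGGAAGT), E2F (TTTNGCGC), the GC box (GGGCGG), the TATA box (TATAAA), and the letters CCAAT, and capitals mark the matches on either strand.
BCL2, chr18:63319720-63320019, minus strand: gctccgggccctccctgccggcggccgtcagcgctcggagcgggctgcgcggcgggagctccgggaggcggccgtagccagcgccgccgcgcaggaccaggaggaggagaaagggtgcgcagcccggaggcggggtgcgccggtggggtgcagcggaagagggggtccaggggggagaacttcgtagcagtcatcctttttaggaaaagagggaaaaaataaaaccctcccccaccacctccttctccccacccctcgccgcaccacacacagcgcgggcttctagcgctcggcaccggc
BCL2L1, chr20:31722819-31723118, minus strand, 1 of its 2 windows: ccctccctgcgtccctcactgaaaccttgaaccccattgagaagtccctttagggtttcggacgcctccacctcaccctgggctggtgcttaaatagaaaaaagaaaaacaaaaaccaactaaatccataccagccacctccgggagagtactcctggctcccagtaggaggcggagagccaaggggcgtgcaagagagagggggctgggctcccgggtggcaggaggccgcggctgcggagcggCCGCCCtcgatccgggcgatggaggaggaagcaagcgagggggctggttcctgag
BCL2L11, chr2:111120664-111120963, plus strand: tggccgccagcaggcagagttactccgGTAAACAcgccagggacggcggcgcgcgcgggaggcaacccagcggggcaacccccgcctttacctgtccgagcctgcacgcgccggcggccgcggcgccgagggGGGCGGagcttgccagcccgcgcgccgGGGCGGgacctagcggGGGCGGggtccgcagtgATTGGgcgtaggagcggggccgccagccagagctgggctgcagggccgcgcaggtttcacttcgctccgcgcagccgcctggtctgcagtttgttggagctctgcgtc
BAX, chr19:48954625-48954924, plus strand: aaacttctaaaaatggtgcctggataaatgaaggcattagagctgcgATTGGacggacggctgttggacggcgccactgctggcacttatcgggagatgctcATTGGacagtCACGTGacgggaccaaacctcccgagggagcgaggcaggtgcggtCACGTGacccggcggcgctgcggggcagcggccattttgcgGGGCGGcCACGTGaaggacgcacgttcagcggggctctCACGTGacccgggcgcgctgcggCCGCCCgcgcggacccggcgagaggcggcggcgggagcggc
BAK1, chr6:33580227-33580526, minus strand: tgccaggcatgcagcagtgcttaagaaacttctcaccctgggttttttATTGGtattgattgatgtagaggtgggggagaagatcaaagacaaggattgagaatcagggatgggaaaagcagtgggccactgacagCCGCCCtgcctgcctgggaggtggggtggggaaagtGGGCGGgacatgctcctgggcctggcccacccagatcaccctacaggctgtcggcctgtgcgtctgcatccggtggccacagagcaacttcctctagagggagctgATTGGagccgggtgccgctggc

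The BCL2L11 window held 1 FOXO match, which begins 223 bases before the start, a motif found in 3.42% of all 35116 windows. It was the only FOXO match in the windows of the family. The same window held 3 GC boxes, which 44.95% of all windows have at least once. The BAX window held 4 E-boxes, at 138, 93, 45, and 14 bases before the start, whereas 7.26% of all windows held any. The window of BBC3, whose change was negative, also held 1 E-box, 232 bases before the start. It held 1 AP-1 match too, a motif found in 7.71% of all windows. The BCL2 window, 70.7% G and C, held none of the 10 motifs, and the BCL2L1 window shown held 1 GC box. The BCL2L1 window not shown, farther upstream, held 1 ETS match, 1 E2F match, and 2 TATA boxes. The ETS match begins at base 10 counted from the start of that window's transcript, so it is not upstream of it. The E2F match lies 111 bases before that start and the TATA boxes 208 and 125 bases before it. Of all windows, 4.14% held an ETS match, 1.79% an E2F match, and 11.5% a TATA box. A match is a run of letters and was not tested as a binding site.

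Among the anti-apoptotic genes, BCL2 and BCL2L1 rose while MCL1 did not change beyond its error. BCL2 (ENSG00000171791, chromosome 18 of hg19, 60790579 to 60987361), the founding member of the family, was read 32 and 40 times at 6 h but 165 and 201 times at 24 h. Both 24 h libraries lay far above both 6 h libraries. Its normalized count was 36.5 ± 2.71 (SD, n = 2) after 6 h and 180 ± 22.1 after 24 h, a 4.91-fold rise. The log2 fold change was 2.30 (95% interval 1.91 to 2.68), with an edgeR adjusted P of 3.15e-11, the 159th highest of the 12876 genes.

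BCL2L1 (ENSG00000171552, chromosome 20, 30252255 to 30311792), which encodes BCL-xL and, by alternative splicing, the pro-apoptotic BCL-xS, had 1665 and 1820 counts at 6 h and 3723 and 3839 at 24 h. The normalized count was 1772 ± 36.3 (SD, n = 2) after 6 h and 3723 ± 18.9 after 24 h, and the difference was far larger than the spread between libraries. This was a 2.10-fold rise, with a log2 fold change of 1.07 (95% interval 0.93 to 1.22) and an edgeR adjusted P of 3.92e-13. Counts per gene do not separate the 2 splice forms. In hg19, BCL2L1 shares 134 bp with AL160175.1, which had at most 1 count in any library, and it was the only one of the 10 genes to overlap another gene of the table.

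MCL1 (ENSG00000143384, chromosome 1, 150547032 to 150552066), a short-lived anti-apoptotic protein, had 8851 and 9636 counts at 6 h and 9089 and 9154 at 24 h. The normalized counts of the times lay close together, at 9400 ± 219 (SD, n = 2) and 8982 ± 104. The log2 fold change was -0.07 (95% interval -0.22 to 0.08, edgeR adjusted P = 0.442), so a change of more than 0.22 in either direction on the log2 scale lies outside the interval.

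Among the BH3-only genes, BCL2L11 fell and the other 4 had smaller changes, none of them called. BCL2L11 (ENSG00000153094, chromosome 2, 111876955 to 111926024), which encodes BIM, a BH3-only protein that can bind every anti-apoptotic member, had 1540 and 1681 counts at 6 h and 509 and 641 at 24 h. Both 24 h libraries were far below both 6 h libraries, although the 24 h libraries differed from each other, with normalized counts of 507 and 624. The mean normalized count was 1638 ± 35.2 (SD, n = 2) at 6 h and 565 ± 82.5 at 24 h, 2.89-fold higher at 6 h. The log2 fold change was -1.53 (95% interval -1.71 to -1.35), with an edgeR adjusted P of 1.53e-14, the 629th lowest of the genes tested.

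BMF (ENSG00000104081, chromosome 15, 40380091 to 40401093), whose product is held at the cytoskeleton until released, had 291 and 323 counts at 6 h and 246 and 246 at 24 h. BBC3 (ENSG00000105327, chromosome 19, 47724081 to 47736023), which encodes PUMA, had 763 and 872 counts at 6 h and 666 and 668 at 24 h. Both were lower at 24 h in each library, by amounts below the cutoff on size. The log2 fold change was -0.36 (95% interval -0.59 to -0.14, edgeR adjusted P = 0.00531) for BMF. It was -0.34 (95% interval -0.51 to -0.17, edgeR adjusted P = 0.000815) for BBC3.

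PMAIP1 (ENSG00000141682, chromosome 18, 57567180 to 57571538), which encodes NOXA, a BH3-only protein that binds MCL1, was the only BH3-only gene with a positive change. It had 1087 and 1114 counts at 6 h and 1315 and 1318 at 24 h. Its normalized counts of 1173 and 1069 at 6 h lay apart from each other by nearly as much as the nearer one lay from the 24 h libraries, at 1310 and 1283. The log2 fold change was 0.21 (95% interval 0.06 to 0.37), with an edgeR adjusted P of 0.0163. That P rose to 0.0684 with DESeq2, 0.0549 with library size alone, 0.0531 without 24 h replicate 1, and 0.196 without 6 h replicate 2. BIK (ENSG00000100290, chromosome 22, 43506754 to 43525718), a BH3-only protein of the endoplasmic reticulum, had only 14 and 22 counts at 6 h and 15 and 13 at 24 h. A change of BIK was not detectable at this depth, with a log2 fold change of -0.40 and a 95% interval from -1.19 to 0.38 (edgeR adjusted P = 0.363).

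The 2 effectors moved apart. BAK1 (ENSG00000030110, chromosome 6, 33540329 to 33548019), which resides on the outer mitochondrial membrane, had 819 and 962 counts at 6 h and 619 and 590 at 24 h. Its normalized count was 904 ± 27.4 (SD, n = 2) after 6 h and 595 ± 30.1 after 24 h, with a log2 fold change of -0.60 (95% interval -0.78 to -0.43, edgeR adjusted P = 5.99e-07). BAX (ENSG00000087088, chromosome 19, 49458072 to 49465055), which moves from the cytosol to mitochondria when activated, had 1911 and 2302 counts at 6 h and 2547 and 2645 at 24 h. Its normalized count rose from 2136 ± 103 (SD, n = 2) to 2556 ± 25.7, a log2 fold change of 0.26 (95% interval 0.11 to 0.40, edgeR adjusted P = 0.00230) that stayed below the cutoff on size.

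**Figure D2:**
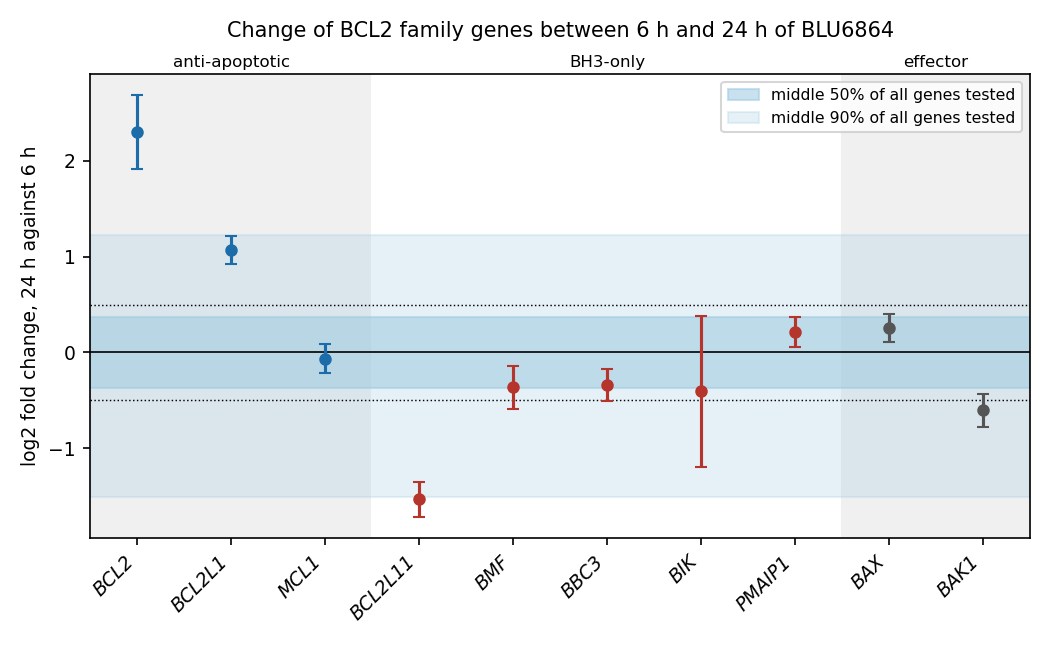
Log2 fold change of each gene between 24 h and 6 h (points) with its 95% interval from edgeR (bars), dotted lines at the cutoff of 0.5 in either direction, and bands for the middle 50% and 90% of all genes tested. BCL2 lies above the wider band and BCL2L11 just below it, whereas MCL1, PMAIP1, BAX, BMF, and BBC3 lie within the narrower band.

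To compare the genes with each other, normalized counts were divided by a transcript length, that of the longest protein-coding transcript GENCODE v44 lists for the gene. On this scale MCL1 was highest, with 2380 ± 55.5 (SD, n = 2) normalized counts per kb at 6 h and 2274 ± 26.3 at 24 h, and BAX was second, with 1573 ± 75.8 and 1882 ± 19.0. At 6 h these were followed by PMAIP1 with 590 ± 39.0 and BCL2L1 with 552 ± 11.3 per kb, neighbours whose difference was no larger than the spread of PMAIP1. At 24 h BCL2L1, with 1159 ± 5.88 per kb, lay above PMAIP1, with 683 ± 10.2. BCL2L11 went from 317 ± 6.80 to 109 ± 16.0 per kb and BCL2 from 4.89 ± 0.363 to 24.1 ± 2.96, so BCL2 remained far below BCL2L1 and MCL1 in spite of the largest fold change of the 10. At 24 h BCL2 lay above BIK, which had 14.5 ± 1.71, and at 6 h below it. Both crossings rest on the transcript length assumed. The shortest protein-coding transcript listed was also tried, without a check that it holds a complete coding sequence. Its length was 383 bp for BAX, 490 bp for BMF, and 572 bp for BCL2 and BCL2L11. Values with it show only how far the levels depend on length. With the shortest protein-coding transcript, BCL2L1 lay above PMAIP1 at 6 h too (1371 against 888 per kb) and BCL2 above BIK (63.7 against 19.0), while at 24 h BCL2 also lay above BAK1 (315 against 274).

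**Figure D3:**
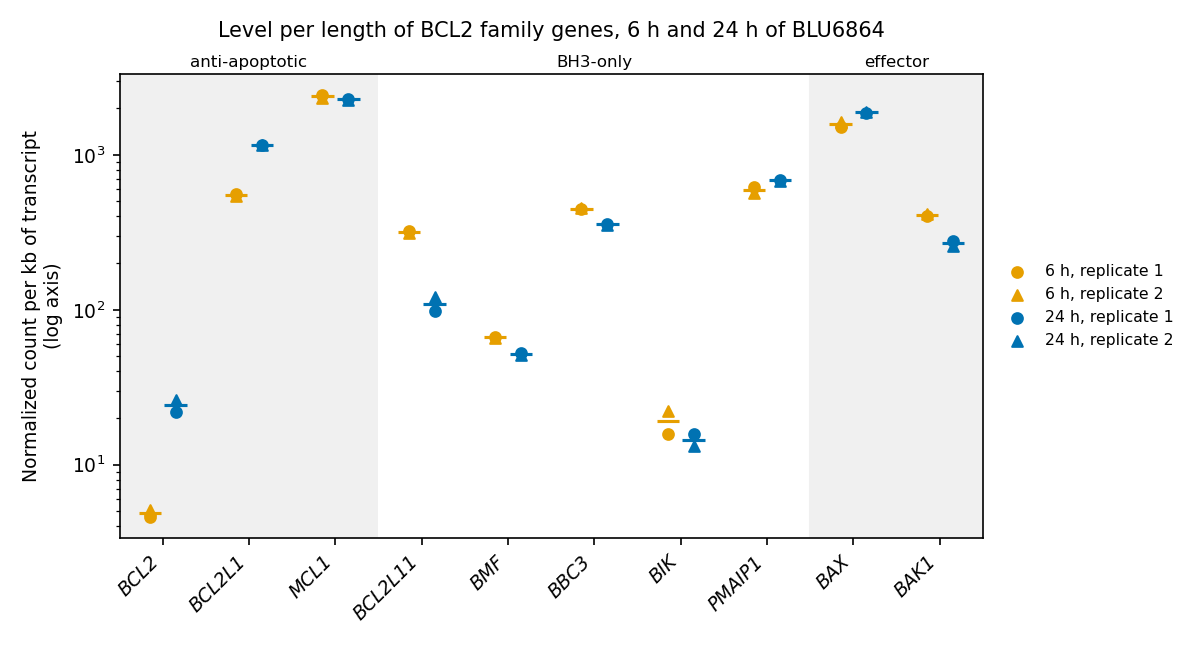
Normalized count per kb of the longest protein-coding transcript (log axis) in each library, with colours and symbols for time and replicate as given in the key, and bars at the means. MCL1 and BAX are highest at both times, BCL2L1 lies above PMAIP1 at 24 h but not at 6 h with this length, and BCL2 and BIK are lowest with it.

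Summed per length, the 3 anti-apoptotic genes made up 46.8% and 45.5% of the signal of the 10 genes at 6 h but 50.8% and 50.6% at 24 h. These sums leave out the other members of the family. Among those, the anti-apoptotic BCL2A1 fell from a mean normalized count of 848 at 6 h to 82.3 at 24 h. Shares with BCL2A1 included were not computed, so the values do not give the balance of the whole family. The 5 BH3-only genes made up 23.1% and 22.3% at 6 h and 17.8% and 17.8% at 24 h. The share of BAX and BAK1 together overlapped between the times, with 30.1% and 32.2% at 6 h and 31.4% and 31.6% at 24 h. Within the anti-apoptotic genes, the share of BCL2L1 went from 18.8% in both 6 h libraries to 33.3% and 33.8% at 24 h. Within the BH3-only genes, the share of BCL2L11 went from 21.9% and 22.0% to 8.07% and 9.95%. These shares rest on the transcript length assumed. With the shortest protein-coding transcript in its place, the shares at the mean of the 2 libraries were 47.3% at 6 h and 53.1% at 24 h for the anti-apoptotic genes, 24.0% and 14.2% for the BH3-only genes, and 28.6% and 32.7% for the effectors. MCL1 and BAX stayed highest and second, but BCL2L11 moved from place 7 to place 3 of the 10 at 6 h. With this transcript, unchecked for completeness, BCL2L11 had the highest value of the BH3-only genes at 6 h, 2863 per kb against 888 for PMAIP1. At 24 h it lay just below PMAIP1, with 989 against 1027 per kb. These places show how far the order depends on length and are not another estimate of it. The shares of BCL2L1 and BCL2L11 within their roles were not computed with the shortest transcript.

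Beyond the 10 genes, 17 others were listed, of which 14 passed the filter. The list holds other members of the family and genes known for binding BCL2 proteins, such as BNIP2 and BECN1. Of the 14 tested, 1 was called higher and 4 lower, and the median log2 fold change was -0.28. For this list and those that follow, the shares over all genes tested are the 17.4% called higher and 17.7% called lower, with a median of 0.0029, and nothing particular to a list is read from its counts. BCL2A1, an anti-apoptotic gene and NF-kappaB target, had 727 and 950 counts at 6 h and 88 and 79 at 24 h, so that it moved opposite to BCL2 and BCL2L1. Its log2 fold change was -3.37 (SE 0.123, edgeR adjusted P = 9.62e-19). BCL2L12 and BCL2L15 had log2 fold changes of -1.70 and -1.82, and BCL2L12 shares 310 bp with IRF3, whose log2 fold change was 0.0038. The remaining 2 called genes, named after their values were seen, were BNIP1 with -0.64 and BOK, an effector like BAX and BAK1, with 0.57. The BOK call was lost without 24 h replicate 2, with 0.46, and that of BNIP1 without 6 h replicate 2, with -0.497. HRK had 0 counts in every library, and BCL2L10 and BCL2L14 had at most 5.

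Of 26 genes acting after or beside the mitochondrial step, 25 were tested, with 1 called higher and 3 lower and a median log2 fold change of -0.05. BIRC5, which encodes survivin, an inhibitor of apoptosis protein that also serves in mitosis, had 1168 and 1366 counts at 6 h but 57 and 75 at 24 h, with a log2 fold change of -4.30 (SE 0.118, edgeR adjusted P = 1.68e-21). The other called genes, named after their values were seen, were CASP9, the initiator caspase of the apoptosome, with -0.70, VDAC3, a mitochondrial channel, with -0.52, and AIFM1, a mitochondrial flavoprotein, with 0.55. VDAC3 fell short of the cutoff with upper quartile scaling (-0.49), without 24 h replicate 1 (-0.47), and without 6 h replicate 2 (-0.44), and AIFM1 without the same libraries (0.49 and 0.43). Of 14 genes for binding partners of BH3-only proteins or turnover of MCL1, all were tested and 2 were called, both lower. These were YWHAQ, a 14-3-3 protein of the group that holds BAD, with -0.56, and MARCH5, a mitochondrial ubiquitin ligase, with -0.56.

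**Figure D4:**
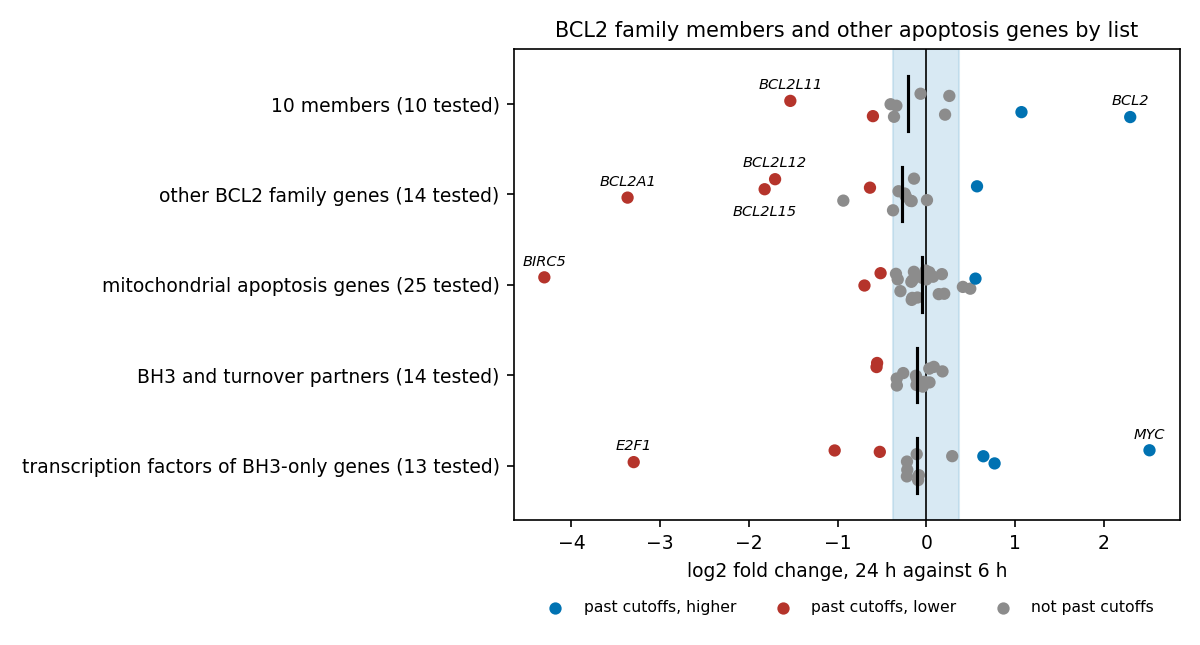
Log2 fold change between 24 h and 6 h of every tested gene (points) in the family and in 4 other lists of apoptosis genes, with blue and red for genes called higher and lower, grey for genes not called, a black bar at the median of each list, and a band for the middle 50% of all genes tested. Most genes lie within or near the band, and BCL2A1, BIRC5, and E2F1 lie farthest below it.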

How the data were processed

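RNA from TPC1 cells at 6 h and 24 h of BLU6864 was sequenced in 2 libraries each. Per the labels, the authors aligned reads to hg19 with STAR 2.3 (the methods give another version) and deposited raw counts of reads per gene, without normalization. The counting program and strand setting are not given in the sources used here. The authors also deposited a normalized signal, the count divided by 1 size factor per library, with its mean. Their own DESeq2 comparison is deposited as a log2 fold change, its standard error and Wald statistic (score values), and p-values. None of these columns was used.

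The raw counts went into edgeR 4.0.16, run in R 4.3.3 (filterByExpr, TMM, quasi-likelihood test, time as the only factor). The filter kept 12876 genes with 99.97% of the counts. Standard errors are the log2 fold change divided by the root of F. P was adjusted over all genes tested by Benjamini-Hochberg. DESeq2 1.42.0 was an alternative. The 2 libraries of a time differed by more than sampling noise (chi-square per degree of freedom 7.65 and 10.0) and were counted separately. The scripts were tested on simulated data. Transcript lengths came from GENCODE v44, matched by Ensembl identifier, and figures were drawn with matplotlib 3.10.9.

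The 10 genes and all lists were chosen with earlier results of these data known. The rule for genes named outside the 10 took, in each list, those called with a log2 fold change over 1 in size or, where there were none, the 2 with the largest change. Further genes were named after their values were seen, namely other called genes, FOXO3, markers, genes at or near 0 counts, and overlapping genes. No dose, vehicle, BGJ398, or combined treatment comparison was made, and those libraries were not analysed here. Some genes counted in the lists are not reported here by name.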

Additional observations from a re-analysis of the deposited data

How the results depend on the processing

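The 10 genes were fitted under 10 alternatives, namely DESeq2, upper quartile scaling, library size alone, every gene with a count, a minimum of 10 counts in each library, the replicate block, and each of the 4 libraries left out. In every one, 2 of the 10 were called higher and 2 lower, and none of the 10 changed sign. BCL2 stayed between 2.17 and 2.42 on the log2 scale, BCL2L1 between 1.03 and 1.10, BCL2L11 between -1.68 and -1.38, and BAK1 between -0.65 and -0.54. With a library left out, 1 time has a single library, which is assumed to vary like the others. With an adjusted P under 0.05 and no cutoff on size, the counts moved to 4 higher and 4 lower of the 10 and to 4247 higher and 4196 lower of all genes, from 2238 and 2278, since the size cutoff was removed. Across the scalings the median change over all genes, in log2, lay between -0.040 and 0.033. The same alternatives for the other lists were added after the data were seen.

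The replicate numbers occur at both times, but no source says what they mark. The deviations of same-numbered libraries correlated at 0.178 across 11396 genes, and with the replicate block 2 of the 10 genes were called higher and 2 lower, and 2283 higher and 2313 lower of all genes. Per kb levels depend on the transcript chosen, since the BCL2 transcripts listed run from 572 to 7461 bp, the shortest unchecked for completeness. Low counts limit BIK.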

Other observations

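A list of 16 transcription factors known to act on BH3-only genes held 13 tested genes, of which 3 were called higher and 3 lower, with a median log2 fold change of -0.11, beside 17.4% and 17.7% of all genes tested called higher and lower. MYC had 431 and 472 counts at 6 h but 2603 and 2722 at 24 h, with a log2 fold change of 2.51 (SE 0.0773, edgeR adjusted P = 2.35e-20). E2F1, the cell cycle factor, had 273 and 291 counts at 6 h and 31 and 28 at 24 h, with a log2 fold change of -3.30 (SE 0.173, edgeR adjusted P = 2.96e-15). ATF3, a stress-induced factor, had 155 and 197 counts at 6 h but 105 and 72 at 24 h, with a log2 fold change of -1.03. Among the other called genes, JUN with 0.64 and FOXO1 with -0.52 were named after their values were seen. The FOXO1 call was lost with upper quartile scaling (-0.495), without 24 h replicate 1 (-0.44), and without 6 h replicate 1 (-0.48). FOXO3, a known activator of BCL2L11 that was not called and was also named after its value was seen, had overlapping normalized counts and a log2 fold change of -0.08 (SE 0.0774).

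Of the 13 markers of thyroid and epithelial cells, 7 were tested, with 1 called higher and 2 lower. KRT19 had a log2 fold change of -1.59 and TG of -1.09, while FOXE1, named after its value was seen, had 0.84. Of the 11 markers of white blood cells and fibroblasts, 4 were tested. PDGFRB had a log2 fold change of -1.48, and CD68, CD14, and LUM, also named after their values were seen, had -0.84, 0.95, and 0.75. The LUM call was lost with DESeq2, without 24 h replicate 1, and without 6 h replicate 2, with log2 fold changes of 0.74, 0.68, and 0.67.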
